A study of Homo sapiens with 12 samples.

Results

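The genes described here are 9 direct transcriptional targets of p53, CDKN1A, MDM2, BAX, SESN1, SESN2, ZMAT3, SPATA18, FDXR and GDF15, followed across 12 polyA RNA libraries of HCT116 cells. They were chosen by gene symbol and each matched 1 Ensembl identifier, so that 9 of the 31492 identifiers with at least 1 read were members. HCT116, derived from a human colorectal carcinoma, is a standard laboratory line. Its cells, described by the submitters as clones, expressed 1 of 4 constructs, with 3 libraries each. CR3 is a peptide made to perturb condensates, which are membraneless assemblies of protein and RNA; scramble and reverse are constructs named as variants of it; and mCherry, a red fluorescent protein, is the control. All 4 groups, mCherry included, received doxycycline, the inducer of the constructs, at a labelled 1 ug/ul, added 48 before RNA extraction with no unit of time stated. How many clones stand behind each group, and which promoter drives each construct, is not stated in the labels, so an effect of a construct and a difference between clones cannot be told apart. Nor do the labels say whether the 3 libraries of a group came from separate cultures, so the p-values measure only the spread between these libraries.

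p53 is a transcription factor that is kept scarce in unstressed cells by the ubiquitin ligase MDM2 and that accumulates after DNA damage, ribosomal stress and oncogene activation. It binds response elements near its target genes and raises their transcription, among them genes for cell cycle arrest, apoptosis, DNA repair and metabolism, and also MDM2, which closes a negative feedback loop. The arrest gene CDKN1A encodes p21, an inhibitor of cyclin-dependent kinases through which p53 lowers many cell cycle genes indirectly, by way of the DREAM complex.

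The libraries held 17431754 to 23566228 reads assigned to genes. Levels below are normalized reads, the rebuilt read count divided by the size factor of its library, and fold changes are on the log2(normalized reads + 1) scale. A gene was called at a Benjamini-Hochberg adjusted p under 0.05 in limma, adjusted over 15559 tested genes. Of 14 colon epithelial markers, the general epithelial genes EPCAM (4206 to 5430 normalized reads over the 12 libraries) and KRT8 (21570 to 29410) were high and the intestinal factor CDX2 was present (289.1 to 393.6), while the intestinal genes VIL1 (0 to 5 reads), LGALS4 (0 to 8 reads), CDX1 (0 to 2 reads) and KRT20 (7 to 29 reads) were near silent in all groups. Library mCherry 3 stood apart from the 2 other mCherry libraries, and CR3 1 and CR3 2 lay on opposite sides of their group, along the largest component of the within-group spread, which held 38.1% of the variance over 11149 genes.

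CR3 cells had higher levels of 5 of the 9 targets, SPATA18, SESN2, ZMAT3, SESN1 and BAX, than cells of each of the other 3 groups. CDKN1A, MDM2, FDXR and GDF15 were not called in any of these comparisons, although with scaling by library total CDKN1A was called higher in all 3, and MDM2 against mCherry and scramble. The arrest gene CDKN1A and the feedback gene MDM2 are widely used as readouts of p53 activity. Whether p53 activity differed between the groups was not tested. In CR3 against mCherry 28.1% of all tested genes were called, 13.9% as higher and 14.3% as lower, and 13.7% had all CR3 libraries above the 9 others, as these 5 members did, while 13.3% had them below. SPATA18 passed the filter on low reads only through its CR3 libraries and had to differ, which leaves 4 of the other 8 members as higher. The 4 were the same in CR3 against scramble, where 37.3% of tested genes were called, 18.8% higher and 18.5% lower, and in CR3 against reverse, with 33.2% called, 16.7% higher and 16.5% lower. Of all tested genes, 10.8% were called higher in CR3 than in each of the other 3 groups, and 11% were called lower than in each. The median log2 fold change of the 8 members was 0.288 over mCherry, 0.188 over scramble and 0.282 over reverse, beside 0.002, 0.013 and 0.007 over all tested genes. The 3 comparisons share the CR3 libraries and are not independent of each other. Leaving out any 1 of the 12 libraries kept the calls of SESN2, ZMAT3, SESN1 and BAX in each of the 3 comparisons.

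**Figure D1:**
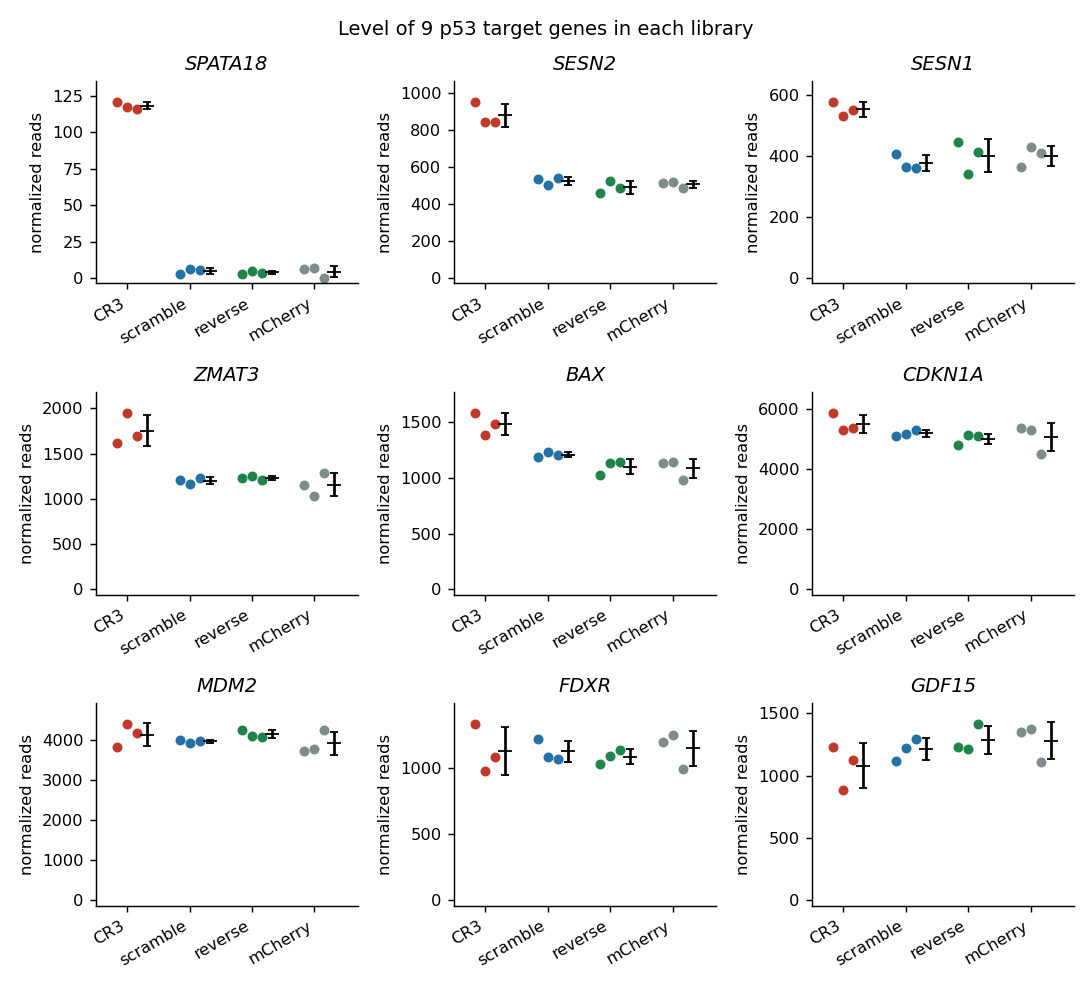
Normalized reads of the 9 p53 targets (vertical axes, linear) in each library of the CR3, scramble, reverse and mCherry groups (horizontal axes). Points are libraries, and black bars give the mean and SD of 3 libraries. The CR3 libraries lie above the other 9 for SPATA18, SESN2, SESN1, ZMAT3 and BAX, and overlap them for CDKN1A, MDM2, FDXR and GDF15.

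Of 19 tested regulators of p53, 5 fell in CR3 against mCherry, namely RPL5, RPL11, WRAP53, DAXX and CHEK1, and the median log2 fold change was -0.059, beside 0.002 over all genes. RPL5, a ribosomal protein that can bind and inhibit MDM2, averaged 13970 ± 362 normalized reads in CR3 and 17250 ± 333 in mCherry (SD, n = 3 each; log2 fold change -0.30, limma adjusted p = 1.96e-05). RPL11, its partner in that role, averaged 11270 ± 314 in CR3 and 13290 ± 282 in mCherry (log2 fold change -0.24, limma adjusted p = 0.000252). WRAP53, which encodes a telomerase and Cajal body factor and whose count is uncertain because the strand setting of the counting is not given, averaged 586.3 ± 33.0 in CR3 and 734.6 ± 26.6 in mCherry (log2 fold change -0.33, limma adjusted p = 0.00254). DAXX, a histone chaperone that also binds MDM2, had a log2 fold change of -0.16 (limma adjusted p = 0.0136), and its call was lost without mCherry 1 (adjusted p = 0.0515) or without mCherry 2 (adjusted p = 0.0676). CHEK1, a checkpoint kinase that phosphorylates p53, had a log2 fold change of -0.25 (limma adjusted p = 0.0184), a call lost without mCherry 3 (adjusted p = 0.065) or CR3 1 (adjusted p = 0.0948). Against mCherry 14.3% of all tested genes fell. In CR3 against scramble and against reverse 9 of the 19 fell and 0 rose, beside 18.5% and 16.5% of all tested genes that fell. With library total scaling 5 fell and 2 rose against scramble and 4 fell against reverse, and leaving out single libraries gave 8 to 10 lower against scramble and 5 to 9 against reverse. RPL5, RPL11, WRAP53, DAXX and CHEK1 were called lower in CR3 against each of mCherry, scramble and reverse. RPL5, RPL11 and WRAP53 were lower in these comparisons also under library total and upper-quartile scaling. For these lists the scalings were chosen after seeing the data, as was leaving out single libraries. With scaling by library total, 2 of the 19 regulators rose and 3 fell against mCherry, and leaving out single libraries gave 0 to 3 higher and 4 or 5 lower.

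CDKN1A was the most abundant member and was not called in any comparison. The gene (ENSG00000124762, GRCh38 chromosome 6, 36676460 to 36687339, plus strand) had 5847, 5291 and 5368 normalized reads in CR3 libraries, 5086, 5150 and 5305 in scramble, 4802, 5123 and 5077 in reverse, and 5352, 5292 and 4510 in mCherry libraries. The CR3 libraries lay above those of reverse but overlapped those of scramble and mCherry, and mCherry 3 was the lowest of the 12. CR3 exceeded mCherry by 0.13 on the log2 scale (95% interval 0 to 0.25, limma adjusted p = 0.132), scramble by 0.09 (-0.04 to 0.21, adjusted p = 0.283) and reverse by 0.14 (0.01 to 0.26, adjusted p = 0.0888). Without mCherry 3 the difference from reverse was called (adjusted p = 0.0188). Scaling by library total gave larger differences, which were called: 0.215 over mCherry (adjusted p = 0.0103), 0.177 over scramble (adjusted p = 0.0234) and 0.224 over reverse (adjusted p = 0.00672).

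MDM2, the ligase that marks p53 for degradation, was likewise not called in any comparison. The gene (ENSG00000135679, chromosome 12, 68808176 to 68850686, plus strand) had 3825, 4396 and 4189 normalized reads in CR3 libraries, 3997, 3936 and 3992 in scramble, 4262, 4117 and 4078 in reverse, and 3735, 3789 and 4261 in mCherry libraries. CR3 1 was below all scramble and reverse libraries while CR3 2 was the highest of the 12, so the groups overlapped. The log2 fold change of CR3 was 0.075 over mCherry (95% interval -0.04 to 0.19, limma adjusted p = 0.356), 0.055 over scramble (adjusted p = 0.477) and -0.008 over reverse (adjusted p = 0.932). Under library total scaling the first reached 0.16 (adjusted p = 0.0369) and the second 0.15 (adjusted p = 0.0478). Part of the exonic sequence of MDM2 is shared with CPM on the opposite strand, a gene that averaged 359 normalized reads over the 12 libraries, so the count of MDM2 is uncertain to that extent.

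Among 13 further arrest and feedback targets, 3 rose and 2 fell in CR3 against mCherry, with a median log2 fold change of -0.007. The shares over all tested genes were 13.9% higher and 14.3% lower. PHLDA3, which restrains AKT, had 554.9, 501.8 and 549.5 normalized reads in CR3 libraries and 418.9, 434.9 and 399 in mCherry libraries, without overlap (log2 fold change 0.36, limma adjusted p = 0.00121). RNF144B, a ubiquitin ligase, rose to 198.2 ± 3.78 in CR3, against 140.7 ± 4.42 in mCherry (SD, n = 3 each; log2 fold change 0.49, limma adjusted p = 0.00615), and SERTAD1, a regulator of cyclin D kinases, had a log2 fold change of 0.29 (adjusted p = 0.00931). PLK2, a polo-like kinase, went the other way, with 586.3 ± 30.3 normalized reads in CR3 and 745 ± 41.0 in mCherry (log2 fold change -0.345, limma adjusted p = 0.00124). GADD45A, a growth arrest gene, also fell (log2 fold change -0.25, limma adjusted p = 0.0497), a call lost without mCherry 3 (adjusted p = 0.179) or CR3 2 (adjusted p = 0.17), among others. PHLDA3 and PLK2 were called in the same directions in CR3 against scramble and reverse. CCNG2, an atypical cyclin, was lower in scramble than in mCherry (log2 fold change -0.42, limma adjusted p = 0.0291), a call lost without mCherry 1, mCherry 2 or any 1 scramble library (adjusted p 0.0731 to 0.156). Against mCherry, leaving out single libraries gave 3 genes of the list higher and 1 to 4 lower, and library total scaling gave 5 higher and 1 lower.

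BAX, which permeabilizes the mitochondrial outer membrane in apoptosis, was higher in CR3. The gene (ENSG00000087088, chromosome 19, 48954815 to 48961798, plus strand) had 1580, 1384 and 1481 normalized reads in CR3 libraries, 1190, 1233 and 1207 in scramble, 1028, 1135 and 1143 in reverse, and 1131, 1141 and 981.5 in mCherry libraries. The lowest CR3 library was above the highest of the other 9. CR3 exceeded mCherry 1.37-fold (log2 fold change 0.45, SE 0.067, limma adjusted p = 6.48e-05), scramble 1.22-fold (0.29, adjusted p = 0.00253) and reverse 1.34-fold (0.43, adjusted p = 0.000101). Scramble libraries in turn were above all mCherry libraries for BAX, by 0.16 on the log2 scale, and this difference was not called (limma adjusted p = 0.277). The RefSeq promoter of BAX (GRCh38.p14, chr19:48954625-48954924, plus strand, 250 bases before the start site to 50 after it) is printed because it is the only member promoter with the letters CACGTG, which read the same on both strands and are marked in capitals. It holds 4 copies, whereas 7.43% of 27305 promoters in the table hold at least 1 and 5 promoters hold 4 or more. A match of letters is no evidence of binding.
BAX promoter: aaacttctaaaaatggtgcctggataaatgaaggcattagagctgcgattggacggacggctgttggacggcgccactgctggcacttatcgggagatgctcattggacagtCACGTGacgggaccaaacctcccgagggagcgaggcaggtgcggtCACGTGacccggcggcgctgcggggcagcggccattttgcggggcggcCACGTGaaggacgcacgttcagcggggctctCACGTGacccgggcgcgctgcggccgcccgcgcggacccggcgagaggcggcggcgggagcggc

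Of 16 tested apoptosis targets besides BAX, 6 rose and 1 fell in CR3 against mCherry, beside 13.9% and 14.3% of all tested genes. EDA2R, a receptor of the tumour necrosis factor family, stood out because it was nearly silent elsewhere: it had 114.9, 158.8 and 145.6 normalized reads in CR3 libraries, and at most 3.201 in any other library. With 441 reads in the CR3 libraries and 4 in the mCherry libraries, normalized reads were 108-fold higher (95% counting interval 41.8 to 398). EDA2R, like SPATA18, was tested only because of its CR3 libraries, which leaves 5 higher and 1 lower of 15, and their median log2 fold change was 0.09. TP53I3, a quinone oxidoreductase, had 785.7, 757.9 and 740.8 normalized reads in CR3 libraries and 629.8, 609.8 and 581.4 in mCherry libraries, with no overlap (log2 fold change 0.33, limma adjusted p = 0.000662), and was higher than in scramble and reverse as well. AEN, a nuclease, rose by 0.225 on the log2 scale (limma adjusted p = 0.00733) in CR3 against mCherry, but it also rose in scramble against mCherry (0.31, adjusted p = 0.0114), and CR3 against scramble was not called (-0.085, adjusted p = 0.272). The AEN call in scramble against mCherry was lost without mCherry 2 (adjusted p = 0.0573), scramble 1 (adjusted p = 0.0527) or scramble 3 (adjusted p = 0.103). PERP, a desmosomal protein, fell (log2 fold change -0.217, limma adjusted p = 0.00464); it was not called against scramble or reverse, nor against mCherry with library total scaling (adjusted p = 0.0685). TP53INP1, a stress-induced nuclear and autophagy protein, averaged 1450 ± 50.5 normalized reads in CR3, 994.5 ± 61.8 in scramble, 1105 ± 95.04 in reverse and 1262 ± 23.2 in mCherry (SD, n = 3 each). It was higher in CR3 than in mCherry (log2 fold change 0.20, limma adjusted p = 0.0291) and lower in scramble than in mCherry (-0.35, adjusted p = 0.0114). The first call was lost without mCherry 1, mCherry 2, CR3 2 or CR3 3 (adjusted p 0.0573 to 0.0984), and the second without mCherry 2 (adjusted p = 0.0576) or scramble 3 (adjusted p = 0.104). TP53INP1 was also called higher in CR3 against scramble and against reverse (0.395 over reverse, limma adjusted p = 0.000148). PIDD1 was likewise called higher in CR3 against mCherry, scramble and reverse. Its log2 fold change was 0.41 over mCherry (limma adjusted p = 0.00863), with overlapping libraries, and 0.62 over reverse (adjusted p = 0.000257). Leaving out single libraries gave 3 to 7 genes of the list higher against mCherry and 1 or 2 lower, and library total scaling gave 7 higher and 0 lower.

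SESN2 had the largest fold change among the 8 members with reads to test in all groups. Sestrins are stress-inducible inhibitors of the growth kinase complex mTORC1, and SESN2 also senses leucine. The gene (ENSG00000130766, chromosome 1, 28259527 to 28282491, plus strand) had 950.1, 843 and 841.8 normalized reads in CR3 libraries, 538, 501.1 and 540 in scramble, 458.3, 524.6 and 487.5 in reverse, and 511.8, 520.7 and 484.4 in mCherry libraries. Every CR3 library was well above the 9 others, which overlapped among themselves. CR3 exceeded mCherry 1.73-fold (log2 fold change 0.79, SE 0.073, limma adjusted p = 2.66e-07), scramble 1.67-fold (0.74, adjusted p = 4.93e-07) and reverse 1.79-fold (0.84, adjusted p = 1.31e-07).

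SESN1, the first sestrin described as a p53 target, also rose, with a smaller fold change. It (ENSG00000080546, chromosome 6, 108986437 to 109094819, minus strand) had 576.4, 529.8 and 551.6 normalized reads in CR3 libraries, 406.7, 362.7 and 362 in scramble, 445.8, 341.5 and 414.6 in reverse, and 364.5, 428.1 and 408.6 in mCherry libraries. The CR3 libraries again lay above all others, and reverse 1 was the nearest to them. The fold was 1.38 over mCherry (log2 fold change 0.47, limma adjusted p = 0.00159), 1.47 over scramble (0.55, adjusted p = 0.000262) and 1.39 over reverse (0.47, adjusted p = 0.0012). The related SESN3, no member, had a different pattern, with 713.8 ± 2.15 normalized reads in CR3 and 694.3 ± 18.2 in mCherry (SD, n = 3 each; limma adjusted p = 0.721), and was lower in scramble than in mCherry (log2 fold change -0.533, adjusted p = 0.000289).

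ZMAT3, a zinc finger protein that binds RNA and regulates splicing and transcript stability in the p53 response, rose in CR3 as well. The gene (ENSG00000172667, chromosome 3, 179017223 to 179072279, minus strand) had 1614, 1946 and 1698 normalized reads in CR3 libraries, 1211, 1159 and 1235 in scramble, 1229, 1256 and 1208 in reverse, and 1149, 1037 and 1284 in mCherry libraries. CR3 libraries did not overlap any other, and mCherry 3 was the highest outside CR3. CR3 exceeded mCherry 1.52-fold (log2 fold change 0.60, limma adjusted p = 9.18e-06), scramble 1.45-fold (0.54, adjusted p = 2.21e-05) and reverse 1.42-fold (0.505, adjusted p = 5.29e-05).

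SPATA18 was close to silent outside CR3. It encodes Mieap, a protein known for its part in mitochondrial quality control downstream of p53. The gene (ENSG00000163071, chromosome 4, 52051331 to 52097292, plus strand) had 120.5, 117.5 and 115.9 normalized reads in CR3 libraries, 2.88, 6.54 and 5.26 in scramble, 3.125, 5.11 and 3.60 in reverse, and 6.27, 6.73 and 0 in mCherry libraries. The CR3 libraries were nearly alike and all others lay far below. Summed over 3 libraries, CR3 held 372 reads, scramble 16, reverse 12 and mCherry 14. CR3 exceeded scramble 24-fold in normalized reads (95% exact counting interval 14.6 to 42.4), reverse 30-fold (17 to 58.6) and mCherry 26-fold (15.3 to 48). These intervals cover counting error only. The gene reached 10 reads in no library but those of CR3, so it entered the fit only through all 3 of these, and no p is given. Its RefSeq promoter (GRCh38.p14, chr4:52051054-52051353, plus strand) is printed because the gene had the largest relative change of the members; capitals mark CG dinucleotides, of which it holds 18, beside a median of 14 (quartiles 3 and 28) over all promoters.
SPATA18 promoter: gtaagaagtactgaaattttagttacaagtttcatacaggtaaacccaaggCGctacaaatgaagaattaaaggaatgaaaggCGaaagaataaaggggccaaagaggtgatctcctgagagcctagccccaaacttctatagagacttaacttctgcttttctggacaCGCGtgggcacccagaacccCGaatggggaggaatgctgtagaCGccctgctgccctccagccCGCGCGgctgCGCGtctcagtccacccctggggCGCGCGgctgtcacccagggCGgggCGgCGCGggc

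EDA2R and SPATA18 were not alone in being near 0 outside CR3, and some markers of other cell types were higher in CR3. Against mCherry, 13.9% of all tested genes were higher in CR3 and 14.3% lower. Of 7 tested markers of an embryonic kidney cell line, 6 rose in CR3 against mCherry, and their summed level was 2541 to 3116 normalized reads in CR3, 1051 to 1138 in scramble, 1173 to 1353 in reverse and 1056 to 1261 in mCherry libraries. IRS4 alone had 487.7 to 586.8 normalized reads in CR3 and at most 6.73 elsewhere, BEX1 was at 0 in all but 1 library, and 5 of the 6 had passed the filter only through CR3, while PAX2 was not called (log2 fold change -0.04, limma adjusted p = 0.799). Blood cell markers summed to 1318 to 1432 in CR3, 24.6 to 35.5 in scramble, 25 to 31.7 in reverse and 18.8 to 36.3 in mCherry; in CR3 almost all of it was LAPTM5, a lysosomal protein of blood cells, while CD3E was at 0 in CR3. LAPTM5 passed the filter only through CR3. Of 3 tested mesenchymal markers 2 rose against mCherry, with sums of 2175 to 2473 in CR3, 1190 to 1248 in scramble, 1159 to 1376 in reverse and 1186 to 1528 in mCherry. The 2 were VIM and FN1, COL1A1 was not called (limma adjusted p = 0.0719), and FAP was at 0 in CR3. Of 11 tested colon epithelial markers 6 fell, with sums of 51070 to 59350 in CR3, 64760 to 68100 in scramble, 62060 to 66760 in reverse and 62020 to 70590 in mCherry. Whether these shifts have a part in the levels of SPATA18, EDA2R or the other members was not tested, and in bulk RNA a change in the share of cells of a type and a change in RNA per cell cannot be told apart.

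FDXR was not called in any comparison. It encodes ferredoxin reductase, a mitochondrial enzyme that feeds electrons to steroid and iron-sulfur cluster synthesis, and its transcript is a common marker of radiation exposure. The gene (ENSG00000161513, chromosome 17, 74862497 to 74873031, minus strand) had 1326, 975.4 and 1078 normalized reads in CR3 libraries, 1216, 1082 and 1069 in scramble, 1025, 1090 and 1135 in reverse, and 1196, 1245 and 993.2 in mCherry libraries. The CR3 group held both the highest and the lowest of the 12 libraries. The log2 fold change of CR3 was -0.03 over mCherry (95% interval -0.24 to 0.18, limma adjusted p = 0.868), -0.004 over scramble (-0.21 to 0.205, adjusted p = 0.979) and 0.045 over reverse (-0.16 to 0.255, adjusted p = 0.767). The upper bounds are below the increases of SESN2, ZMAT3 and BAX over mCherry.

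The promoter of FDXR is the only 1 of the 9 member promoters that holds a 10-base half-site of p53 response elements. All 9 are present in the RefSeq table, and both strands were searched, with the match in capitals. A full element is a close pair of such half-sites. Of the 9 member promoters 0 hold a full element, as do 8 of all 27305. The half-site is held by 6.54% of 27305 RefSeq promoters and by 3 of 42 promoters of the other p53 targets listed. The window is GRCh38.p14 chr17:74872945-74873244 on the minus strand, and p53 elements often lie outside such a window. It is printed because FDXR, which was not called, is the member that holds the half-site. The letters say nothing of whether p53 was bound.
FDXR promoter: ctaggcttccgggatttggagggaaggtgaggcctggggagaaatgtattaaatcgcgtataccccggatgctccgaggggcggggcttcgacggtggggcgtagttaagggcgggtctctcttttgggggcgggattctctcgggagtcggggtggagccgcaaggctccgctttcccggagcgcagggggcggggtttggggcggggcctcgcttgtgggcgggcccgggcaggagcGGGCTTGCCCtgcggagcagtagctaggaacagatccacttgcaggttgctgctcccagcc

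GDF15, a secreted stress cytokine of the TGF-beta family, was lower on average in CR3, in contrast to the members that rose, but not called. The gene (ENSG00000130513, chromosome 19, 18374731 to 18389176, plus strand) had 1229, 883.3 and 1126 normalized reads in CR3 libraries, 1117, 1218 and 1294 in scramble, 1230, 1209 and 1409 in reverse, and 1352, 1374 and 1112 in mCherry libraries. CR3 2 was the lowest of the 12, and the groups overlapped. The log2 fold change of CR3 was -0.25 over mCherry (95% interval -0.48 to -0.03, limma adjusted p = 0.0892), -0.175 over scramble (-0.40 to 0.05, adjusted p = 0.212) and -0.26 over reverse (-0.48 to -0.035, adjusted p = 0.071). The calls depended on single libraries. GDF15 was called lower against mCherry without mCherry 3 (-0.35, adjusted p = 0.018) or without CR3 1 (-0.35, adjusted p = 0.0124), against scramble without CR3 1 (-0.28, adjusted p = 0.0382), and against reverse without mCherry 3 (-0.26, adjusted p = 0.0369) or without CR3 1 (-0.36, adjusted p = 0.00968). Upper-quartile scaling also gave a call against reverse (-0.28, adjusted p = 0.0448).

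**Figure D2:**
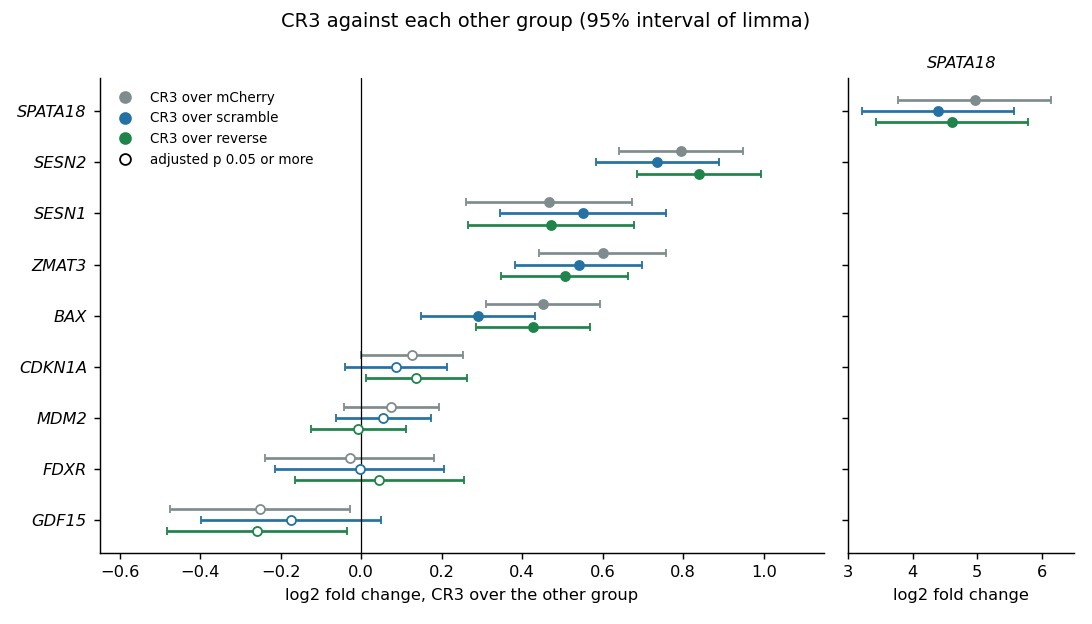
Log2 fold change of CR3 over mCherry, scramble and reverse (horizontal axes) for each of the 9 genes (rows), with 95% intervals from limma; SPATA18 has an axis of its own. Filled points are called at an adjusted p under 0.05. SPATA18 passed the filter on low reads only through its CR3 libraries and had to differ, so its filled points are no test. The points of SESN2, SESN1, ZMAT3 and BAX lie between 0.29 and 0.84, those of CDKN1A, MDM2 and FDXR between -0.03 and 0.14, and those of GDF15 between -0.26 and -0.175.

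Per kilobase of exon, CDKN1A was the member with the highest level in CR3, with a mean of 1804 normalized reads per kb, followed by BAX with 572.9, GDF15 with 517, FDXR with 312.9, MDM2 with 311.4, SESN2 with 254.4, ZMAT3 with 181.7, SESN1 with 107.9 and SPATA18 with 23.9. BAX and GDF15, and likewise FDXR and MDM2, were neighbours in this order that differed by less than the spread of GDF15 and of FDXR between CR3 libraries. In mCherry the means per kb were 1656 for CDKN1A, 612.8 for GDF15, 419 for BAX, 318.1 for FDXR, 295.8 for MDM2, 146.4 for SESN2, 119.9 for ZMAT3, 78.2 for SESN1 and 0.8767 for SPATA18. GDF15 thus ranked above BAX in mCherry and below it in CR3, and the other members kept their places.

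Between the scramble, reverse and mCherry groups no member was called. Limma called 0 of 9 members in scramble against mCherry, where 1.36% of all tested genes were called (0.675% higher and 0.688% lower), and voom on the rebuilt reads also called 0. At an unadjusted p under 0.05 there was 1 member, BAX. In reverse against mCherry, with 0.591% of genes called (0.244% higher and 0.347% lower), and in reverse against scramble, with 0.437% (0.27% higher and 0.167% lower), 0 members were called by either tool or at an unadjusted p under 0.05. Among the 8 members other than SPATA18, the log2 fold changes of scramble over mCherry ran from -0.085 for SESN1 to 0.16 for BAX, and those of reverse over mCherry from -0.07 for FDXR to 0.095 for ZMAT3. MDM2 was higher in every reverse library than in any scramble library, and BAX lower, though neither was called (adjusted p = 0.846 for MDM2 and 0.714 for BAX).

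Within groups, the members fell into sets that moved against each other from library to library. In mCherry 3, CDKN1A, BAX, FDXR and GDF15 lay 0.16, 0.14, 0.20 and 0.20 below their group mean on the log2 scale (deviations -0.159, -0.14, -0.198 and -0.196), whereas MDM2 and ZMAT3 lay 0.12 and 0.16 above it. CR3 2 showed the same arrangement, with deviations of -0.195 for FDXR, -0.275 for GDF15, -0.096 for BAX and -0.055 for CDKN1A beside 0.09 for MDM2 and 0.155 for ZMAT3. CR3 1 showed the reverse one, with 0.247 for FDXR, 0.20 for GDF15 and 0.089 for CDKN1A beside -0.11 for both MDM2 and ZMAT3. On the component that held the largest part of the within-group spread of all genes, mCherry 3 scored 12.5, CR3 2 8.61 and CR3 1 -9.23, and the other 9 libraries between -6.72 and 3.84. SESN1 did not share it, with deviations of 0.06, -0.06 and -0.002 in CR3 1, 2 and 3.

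**Figure D3:**
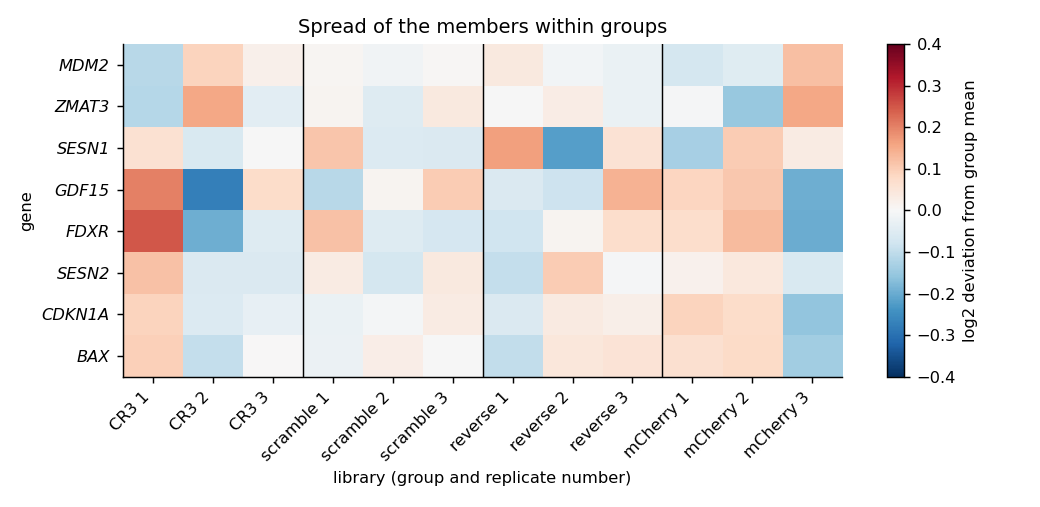
Deviation of each library from the mean of its group (color, log2 scale) for 8 members (rows; SPATA18 is left out because of its few reads outside CR3), with libraries in columns by group. MDM2 and ZMAT3 are high where CDKN1A, BAX, FDXR and GDF15 are low, most clearly in CR3 1, CR3 2 and mCherry 3, where deviations reach -0.275 for GDF15 and 0.247 for FDXR.

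Genes whose pattern over all libraries was nearest to that of CDKN1A, MDM2 and GDF15 were sought next. Over the 12 libraries, among 11148 genes with a mean of at least 100 normalized reads, the patterns nearest to CDKN1A were those of ENTPD6 (Pearson r = 0.949), ATP6V0B (0.936) and RPS6KB2 (0.932). Those nearest to MDM2 were FAM91A1 (0.936), GKAP1 (0.934) and DICER1 (0.931), and those nearest to GDF15 were TSHZ1 (0.92), TSEN34 (0.918) and FGFR4 (0.909). No gene of the p53 lists was among the 9 genes. With so few of the 11148 genes kept, this absence carries no information on the lists. The correlation with the largest component of the within-group spread was -0.947 for CDKN1A, 0.978 for MDM2 and -0.849 for GDF15. Whether the 9 genes follow that component was not tested. The coefficients of the 9 genes are given as a description, since the libraries share groups and that component.

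Metabolic and lysosomal p53 targets rose and fell side by side. Of 17 tested, 5 rose in CR3 against mCherry, GLS2, FAM210B, ANKRA2, ACER2 and FUCA1, and 3 fell, CMBL, STEAP3 and DDIT4. Among all tested genes 13.9% rose and 14.3% fell. GLS2, the p53-responsive glutaminase, had 14.95, 17.5 and 24.45 normalized reads in CR3 libraries and at most 1.045 elsewhere, from 59 reads in CR3 against 2 in mCherry, 28.9-fold higher (95% counting interval 7.65 to 244). FAM210B, a mitochondrial protein, had 971.6, 858.8 and 891.8 normalized reads in CR3 libraries, and 634, 727.6 and 660.4 in mCherry libraries (log2 fold change 0.43, limma adjusted p = 0.00287), with no overlap. CMBL, a hydrolase, averaged 820.3 ± 41.4 in CR3 and 1048 ± 35.2 in mCherry (SD, n = 3 each; log2 fold change -0.35, limma adjusted p = 0.000257), and STEAP3, a ferrireductase, 635.1 ± 61.0 in CR3 and 790.5 ± 25.5 in mCherry (log2 fold change -0.32, adjusted p = 0.00287). These 4 genes were called in the same direction against scramble and reverse. Since GLS2 was tested only through CR3, the count without it was 4 higher and 3 lower of 16, with a median log2 fold change of 0.076. Leaving out single libraries gave 1 to 5 of the 17 higher and 3 lower, and library total scaling gave 9 higher and 3 lower.

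Of 6 DNA repair and nucleotide targets, RRM2B, a subunit of the p53-inducible ribonucleotide reductase, rose (log2 fold change 0.151, limma adjusted p = 0.0343) and DDB2, a sensor of ultraviolet damage, fell (-0.24, adjusted p = 0.0455). Both calls against mCherry were lost with single libraries left out, with an adjusted p of 0.114 for RRM2B without mCherry 1 or mCherry 2 and of 0.207 for DDB2 without CR3 2, and RRM2B was not called under upper-quartile scaling (adjusted p = 0.0605). RPS27L (0.14, adjusted p = 0.123) and POLH (0.138, adjusted p = 0.149) were not called. Genes related to the members by family or pathway were also mixed, with 3 of 14 higher (BAK1, GDF11 and ZMAT5) and 3 lower (BCL2L1, FDX1 and CDKN1B). For both lists the shares over all tested genes against mCherry were 13.9% higher and 14.3% lower. BAK1, the partner of BAX in membrane permeabilization, had 1132, 1131 and 1104 normalized reads in CR3 libraries and 924.4, 893.3 and 840.7 in mCherry libraries (log2 fold change 0.34, limma adjusted p = 0.000178). BCL2L1, which encodes the BAX antagonist BCL-XL, averaged 2500 ± 98.05 in CR3 and 2981 ± 46.2 in mCherry (SD, n = 3 each; log2 fold change -0.255, adjusted p = 0.00115). GDF11, a relative of GDF15, rose (0.29, adjusted p = 0.00579), and FDX1, the ferredoxin that FDXR reduces, fell (-0.23, adjusted p = 0.0122), a call lost without mCherry 3 (adjusted p = 0.0534) or CR3 3 (adjusted p = 0.081). Against mCherry, library total scaling gave 3 relatives higher and 1 lower, and 3 repair genes higher and 0 lower. Leaving out single libraries gave 2 to 3 relatives higher and 1 to 3 lower, and 0 to 2 repair genes higher and 0 to 1 lower.

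Most genes that p53 lowers through p21 and DREAM were lower in CR3. Of 20 tested, 17 fell in CR3 against mCherry, where 14.3% of all genes fell, 19 against scramble and 17 against reverse. The median log2 fold changes were -0.46, -0.58 and -0.55. CDKN1A itself was not called, but was called higher in all 3 comparisons with scaling by library total. Whether p21 has a part in the levels of these genes was not tested. CDC20, an activator of the anaphase-promoting complex, had 2511, 2661 and 2579 normalized reads in CR3 libraries, and 4127, 4249 and 4017 in mCherry libraries (log2 fold change -0.68, limma adjusted p = 3.49e-08). The mitotic cyclin CCNB2 averaged 819.8 ± 66.5 in CR3 and 1272 ± 31.0 in mCherry (SD, n = 3 each; -0.64, adjusted p = 5.51e-07), the kinase PLK1 2068 ± 52.6 in CR3 and 2956 ± 101 in mCherry (-0.515, adjusted p = 7.27e-07), and the survivin gene BIRC5 2522 ± 104 in CR3 and 3468 ± 47.4 in mCherry (-0.46, adjusted p = 2.95e-07). These genes mark cycling cells in general. Leaving out single libraries gave 16 or 17 lower against mCherry, and library total scaling gave 16 lower and 1 higher. CDC25A rose in scramble against mCherry (0.33, adjusted p = 0.0167), a call that was lost without mCherry 1 (adjusted p = 0.101), mCherry 2 (adjusted p = 0.0576) or any 1 scramble library (adjusted p 0.0714 to 0.097).

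SESN2 and GDF15 are also activated by ATF4, the transcription factor of the integrated stress response. Of 14 other ATF4 targets tested, ATF4 itself included, 6 fell and 1 rose in CR3 against mCherry, while SESN2 rose. Over all tested genes 14.3% fell and 13.9% rose. STC2, a secreted glycoprotein, averaged 612.8 ± 36.0 normalized reads in CR3 and 942 ± 89.45 in mCherry (SD, n = 3 each; log2 fold change -0.62, limma adjusted p = 4.98e-05), and the cystine transporter gene SLC7A11 averaged 872.7 ± 157 in CR3 and 1318 ± 341 in mCherry (-0.58, adjusted p = 0.0046). DDIT4, an mTORC1 inhibitor that p53 also activates, fell (log2 fold change -0.825, limma adjusted p = 0.00539) against mCherry and was not called against scramble (adjusted p = 0.166). VLDLR, a lipoprotein receptor, was the gene that rose, with 96 reads in CR3 libraries against 1 in mCherry, 93.9-fold higher in normalized reads (95% counting interval 16.5 to 3750), and it was tested only through CR3. SLC3A2, the partner subunit of SLC7A11, was higher in scramble than in mCherry (log2 fold change 0.20, limma adjusted p = 0.0456), a call lost without scramble 3 (adjusted p = 0.217), among others. With scaling by library total, 3 of the 14 fell against mCherry, and leaving out single libraries gave 3 to 6 lower.

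**Figure D4:**
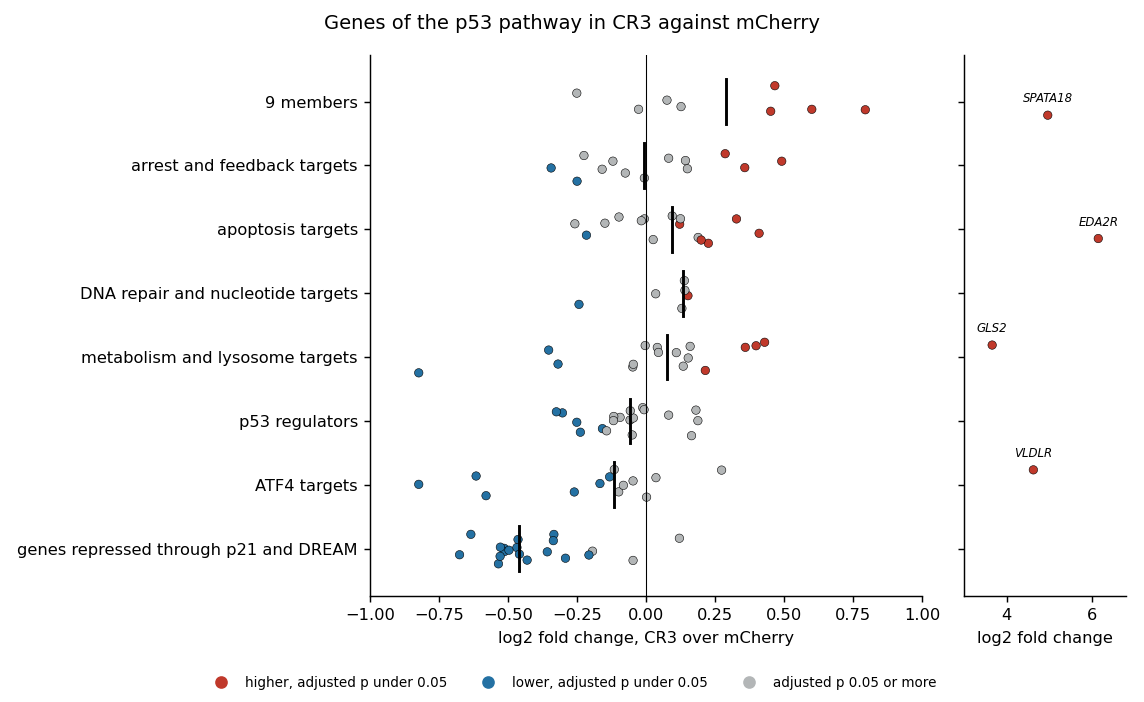
Log2 fold change of CR3 over mCherry (horizontal axes; the right panel continues at higher values) for the tested genes of 8 lists (rows; vertical offsets within a row only separate points). Red and blue points are called higher and lower, and black lines give each median without the genes that passed the filter only through CR3. The repressed genes form a block on the left with a median of -0.46, and the 9 members all lie to the right of that median with none called lower. SPATA18, EDA2R, GLS2 and VLDLR lie between 3.655 and 6.14. They passed the filter only through CR3, so their red color is no test.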

How the data were processed

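PolyA RNA of 12 libraries in 4 labelled groups was prepared with a stranded kit, per the labels' protocols. The submitters' processing notes name FastQC, Trim Galore, STAR, featureCounts, Salmon, GATK, MultiQC, edgeR, DESeq2 and GRCh38, without versions; the annotation release and the strand setting of the counting are not stated. The authors deposited 1 table of 63677 Ensembl identifiers holding reads per gene divided by a size factor of each library, in which values of 1 or more have lost their decimal mark, so this unit is other than a count or a rate.

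Decimal marks were restored by reading each value as a whole multiple of what 1 read is worth in its column, which held for 100.0% of 265152 non-zero values (relative tolerance 1e-07). The power of 10 was chosen per gene by likelihood, with the libraries of a group taken as alike. In this choice, group means far from the median of the groups were penalized, which favours readings with groups alike. The power was ambiguous for 0.62% of values, at a likelihood ratio under 20, and for 0 values of the members. Of 18138 values that had kept the mark in 7 columns, 97.09% were read correctly with the mark hidden. All of these were values of 1 read, so this check does not cover the reading of higher values. Without group labels 645 values were read differently. Library totals were 17431754 to 23566228 reads.

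Genes with 10 reads or more in at least 3 libraries (16174) and no ambiguous value (615 left out) were tested, 15559 in all, with limma 3.58.1 in R 4.3.3 on log2(normalized reads + 1), 1 fit over all 12 libraries, a mean-variance trend and Benjamini-Hochberg adjustment; Python 3.11.15 did the rest. The pseudocount of 1 understates changes of low genes. The unit called for this test on log values, with voom on rebuilt reads as an alternative. Exact counting intervals and the floor of 3 reads cover counting error only. Positions come from GENCODE 29 on GRCh38 and promoters (300 bases) from RefSeq GRCh38.p14. The fit was also run on simulated reads, drawn with the spread between libraries that the choice of the power of 10 assumes. The simulation held no shared component of within-group spread, so it cannot show how the fit behaves with the one seen here.

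The members and lists were chosen with earlier results of these data known. Besides the members, the genes named were, from each list, up to 4 with the smallest p in CR3 against mCherry and up to 2 of those called for the variants; others were named after their values were seen. Alternatives were other pseudocounts, filters, scalings, readings of the decimal mark, models and left-out libraries.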

Additional observations from a re-analysis of the deposited data

How the results depend on the processing

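Of 1170 member fold changes recomputed under 10 alternatives and with each of the 12 libraries left out, 1122 kept direction and call, 12 became called, 36 changed sign and 0 lost a call. The sign changes were in fold changes that were not called. Library total scaling, which moved the median log2 fold change of all genes to 0.091 in CR3 against mCherry, 0.103 against scramble and 0.094 against reverse, gave FDXR 0.06 over mCherry and 0.087 over scramble, and MDM2 0.079 over reverse. It called 7, 7 and 6 members higher in these comparisons, and the share of higher among all calls was 73.9%, 71.5% and 72.4%, beside 49.2%, 50.5% and 50.4% with the deposited factors. Upper-quartile scaling gave SESN1 0.003 in reverse against mCherry and called 1 member lower in CR3 against reverse. With libraries left out, 4 to 5 members were higher against mCherry and scramble and 4 to 6 against reverse, and 0 to 1 were lower in each; SPATA18 could not be tested without any 1 CR3 library. In the same fits FDXR ran from -0.152 to 0.069 in CR3 over mCherry, -0.128 to 0.093 over scramble and -0.078 to 0.143 over reverse, and MDM2 from -0.053 to 0.048 over reverse. In scramble over mCherry the ranges were -0.039 to 0.084 for CDKN1A, -0.016 to 0.079 for MDM2, -0.016 to 0.138 for ZMAT3, -0.4 to 1.075 for SPATA18 and -0.123 to 0.04 for FDXR. In reverse over mCherry they were -0.091 to 0.033 for CDKN1A, -0.045 to 0.074 for BAX, -0.086 to 0.106 for SESN1, -0.096 to 0.001 for SESN2, -0.62 to 0.855 for SPATA18 and -0.091 to 0.062 for GDF15. In reverse over scramble they were -0.001 to 0.191 for SESN1 and -0.084 to 0.009 for FDXR. The causes of these changes were not tested. The 18 correlations of deviations between same-numbered libraries ran from -0.123 to 0.063, of which 0 were over 0.1. Those between differently numbered libraries ran from -0.193 to 0.193. With 3 libraries a group, such correlations cannot exclude a pairing by replicate number. With the replicate block 5 members stayed higher and 0 lower in each CR3 comparison. Over all genes, scramble against mCherry called 105 higher and 107 lower, 43 and 77 with the replicate block, 24 and 36 with only these 2 groups, and 13 to 293 higher and 31 to 215 lower with 1 library left out. Reverse against mCherry called 38 higher and 54 lower, 21 and 33 with only these 2 groups, 51 and 91 with no filter, and 13 to 73 higher and 19 to 67 lower with 1 library left out; reverse against scramble called 42 and 26, 34 and 17 with only these 2 groups, 56 and 42 with no filter, and 16 to 47 higher and 9 to 26 lower with 1 library left out. In CR3 against mCherry 2156 genes were higher and 2223 lower, 3552 and 1253 with library total scaling, and 1101 and 1636 without CR3 3; against scramble 2932 and 2872, 4487 and 1790 with library total scaling, and 1888 and 2339 without CR3 3; against reverse 2599 and 2562, 4037 and 1536 with library total scaling, 1664 and 2219 without CR3 1, and 1548 and 1997 without CR3 3. Depth limits the ratios of SPATA18, EDA2R, GLS2 and VLDLR, which rest on few reads outside CR3.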
